A study of Mus musculus with 10 samples.

Results

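The transcription factors that hold B cells in their identity or turn them towards plasma cells were followed through LSD1 knockout and wild-type B cells of the mouse spleen. The set was given by symbol as Pax5, Ebf1, Spi1, Spib, Ikzf1, Ikzf3, Pou2af1, Irf8, Irf4 and Xbp1, and was matched by Entrez identifier to the rows of the deposited expression table. All 10 genes were found among its 9690 genes, and all 10 passed the filter on low values.

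B cell identity is kept by a network of factors that act on each other's genes. Pax5 and Ebf1 commit progenitors to the B lineage and switch on genes of the B cell receptor, while Pax5 also silences genes of other lineages. The ETS factors PU.1 (from Spi1) and Spi-B (from Spib), the zinc finger proteins Ikaros (from Ikzf1) and Aiolos (from Ikzf3) and the coactivator OBF-1 (from Pou2af1) act beside them. IRF8 and IRF4 share partners and DNA sites but push mature B cells in opposite directions, since high IRF4 drives plasma cell differentiation and IRF8 holds it back. Xbp1 is held down by Pax5 and builds the secretory apparatus once a B cell turns into a plasma cell. Marginal zone B cells (MZB) lie at the edge of the white pulp and turn into plasma cells quickly, whereas follicular B cells (FoB) recirculate and usually need help from T cells.

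LSD1, encoded by Kdm1a, removes methyl groups from histone H3 and works with repressor complexes. The groups were LSD1 knockout MZB (2 libraries), LSD1 wild-type MZB (3 libraries), LSD1 knockout FoB (3 libraries) and LSD1 wild-type FoB (2 libraries), all from unstimulated spleen cells of female C57BL/6J mice. Both cell types were sorted as B220+ and without Thy1.1, F4/80, CD11b, CD93 or GL7, with MZB taken as CD23- CD21hi CD1d+ and FoB as CD23+ CD21mid CD1d-. The sources used here do not give the deleted allele, the promoter of any Cre, the age of the mice or whether a group's libraries come from different mice. P-values therefore reflect the variation among these libraries alone, and that variation may be technical. RNA of 50000 cells was the input of each library, and values are mRNA molecules per cell as deposited.

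Kdm1a stood at 5.37 and 5.94 mRNA per cell in knockout MZB, against 6.37, 8.36 and 7.90 in wild-type MZB, and at 2.04, 2.36 and 1.93 in knockout FoB, against 5.58 and 4.34 in wild-type FoB. In either cell type the knockout libraries were all below the wild-type ones. Kdm1a fell by 1.12 per cell in FoB on the log2 scale (limma adjusted p = 4.31e-05), while the per-cell difference in MZB was −0.39 (limma adjusted p = 0.118) and the difference relative to the bulk of genes (rescaled) was −0.69 (limma adjusted p = 0.000464). Knockout MZB thus kept Kdm1a transcript, at 3.43 ± 0.0758 rescaled (SD, n = 2) against 5.71 ± 0.0998 in wild-type MZB (SD, n = 3). Whether these reads lie outside a deleted stretch or come from cells that kept the gene was not tested, and this limits what the absence of a call in knockout MZB can show. The 6 marker genes of MZB summed to 442 to 484 mRNA per cell in knockout MZB, 402 to 486 in wild-type MZB, 46.9 to 56.7 in knockout FoB and 44.0 to 60.5 in wild-type FoB. MZB libraries thus carried far more of these markers than FoB libraries. The markers include Cr2 (CD21) and Cd1d1 (CD1d), on whose proteins the cells were sorted, so the sort may have fixed part of this difference. Relative to other genes the MZB markers were lower in knockout MZB, with rescaled sums of 275 to 287 against 326 to 358 in wild-type MZB. Of them, Cr2 and S1pr3 were called lower (184 of all 9690 genes were, after rescaling). Of 5 follicular markers, 4 were called higher in knockout than in wild-type MZB on both scales (13.3% of all genes per cell, 3.36% rescaled). Rescaled, the 5 summed to 85.1 to 86.9 in knockout MZB, 54.1 to 63.5 in wild-type MZB, 318 to 326 in knockout FoB and 295 to 306 in wild-type FoB. Their part in the knockout results for MZB was not tested.

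The libraries held 4161051 to 6711847 reads, worked back from the values, and 305 to 9324 of these reads lay behind each value of the 10 genes. Total mRNA ran from 105590 to 121071 molecules per cell in knockout MZB, 74815 to 99800 in wild-type MZB, 43562 to 55704 in knockout FoB and 45237 to 56438 in wild-type FoB. Most genes were thus higher per cell in MZB, and the median gene differed by 0.32 on the log2 scale between knockout and wild-type MZB, by −0.05 between knockout and wild-type FoB, by 1.13 between MZB and FoB among knockout cells and by 0.78 among wild-type cells. Differences were therefore tested per cell and again after each library was divided by a factor that brings most genes to a common level (rescaled). After rescaling those medians became 0.02, −0.01, 0.00 and 0.00. Some differences and levels below are given on 1 scale only. In bulk samples, fewer cells with a transcript and less of it per cell cannot be told apart.

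Irf4 and Irf8 are the pair of relatives whose transcripts parted most between the cell types, so the DNA just upstream of their starts is shown. Each line gives the 250 bases before a transcription start, 5′ to 3′ in the direction of the gene (RefSeq, GRCm38.p6), with the ETS core GGAA, read on either strand, in capitals. The Irf4 window is chr13:30748983-30749232 on the plus strand, and the Irf8 window, before the first of its annotated starts, is chr8:120736108-120736357 on the plus strand.
Irf4: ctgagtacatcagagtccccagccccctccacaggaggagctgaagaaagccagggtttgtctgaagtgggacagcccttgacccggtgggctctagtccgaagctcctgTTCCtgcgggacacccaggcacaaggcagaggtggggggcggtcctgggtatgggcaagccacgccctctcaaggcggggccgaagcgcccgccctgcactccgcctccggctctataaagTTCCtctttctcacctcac
Irf8: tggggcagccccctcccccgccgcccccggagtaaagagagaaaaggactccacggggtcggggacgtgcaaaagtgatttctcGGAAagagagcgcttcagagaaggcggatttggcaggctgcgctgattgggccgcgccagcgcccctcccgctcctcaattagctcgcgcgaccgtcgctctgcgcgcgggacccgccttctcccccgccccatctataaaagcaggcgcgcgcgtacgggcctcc
The Irf4 window held the ETS core 2 times and the Irf8 window held it once. At least 1 such match occurred in 93.4% of the 32851 promoter windows of the annotation, with a median of 3, so its presence here sets neither gene apart. Both windows also held the kappaB-type pattern GGGANNNNCC, searched on both strands, which 17.6% of all windows hold. The composite pattern GGAANNGAAA, which ETS and IRF proteins bind together (2.3% of all windows), was in neither of these windows. Promoter windows were matched for 8 of the 10 genes.

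The 10 genes were expressed at very different levels, which can be compared because a read counts for less in a longer gene. Pax5, Spib and Pou2af1 led in every group with 34.2 to 122 mRNA per cell, followed by Ikzf3 with 28.9 to 57.7 and Ikzf1 with 10.95 to 42.2. The remaining 5 genes, Irf4, Irf8, Spi1, Ebf1 and Xbp1, lay between 5.74 and 26.5 mRNA per cell. Even these stood high among all genes of the table, from the 81.7th percentile (Spi1 in wild-type MZB) upwards. Together the 10 genes summed to 485 ± 58.0 mRNA per cell in knockout MZB (SD, n = 2), 374 ± 50.3 in wild-type MZB (SD, n = 3), 227 ± 18.6 in knockout FoB (SD, n = 3), beside 242 ± 44.0 in wild-type FoB (SD, n = 2). Their share of all mRNA ran only from 0.409% to 0.484% over the libraries, lowest in a wild-type MZB library and highest in a knockout FoB library.

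**Figure D1:**
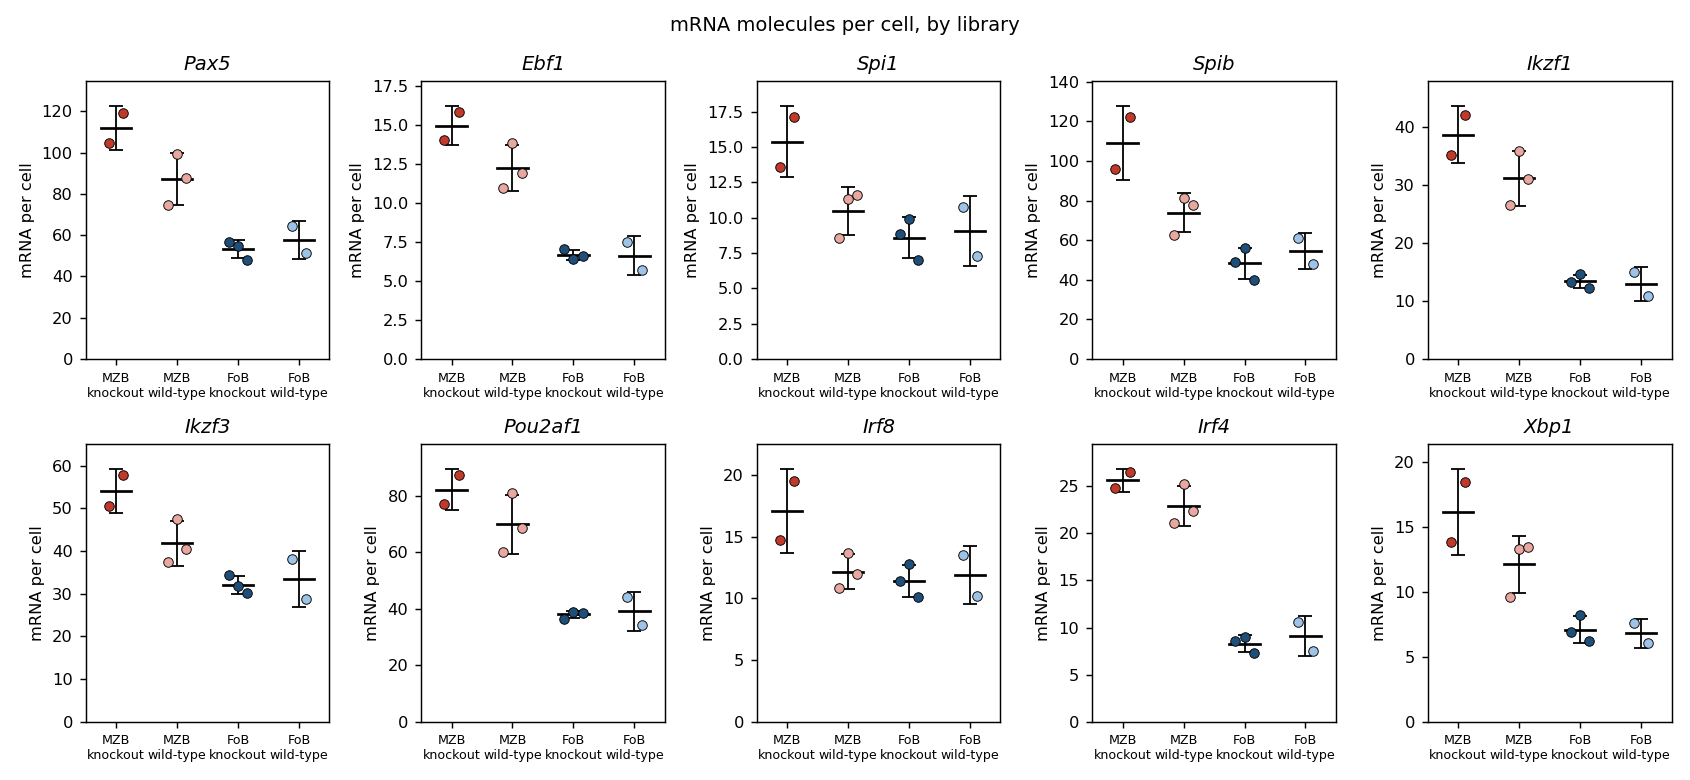
Level of each of the 10 genes in mRNA molecules per cell (vertical axes, from 0) in every library of the 4 groups. Points are libraries, lines are group means and bars are SDs. Each gene has its highest library in knockout MZB, and Irf4 and Ikzf1 show the widest gap between MZB and FoB.

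Knockout and wild-type cells were compared within MZB and within FoB, to ask whether the transcripts of these factors depend on LSD1. In MZB, 0 of the 10 genes were called per cell (limma, Benjamini-Hochberg adjusted p under 0.05), against 14.0% of all genes. An unadjusted p under 0.05 was found for 4 of the 10, beside 3751 of all 9690 genes. The log2 differences per cell ran from 0.16 for Irf4 to 0.56 for Spib, around a median of 0.37 beside 0.32 for all genes, so the set stood about where the whole transcriptome stood. Both knockout libraries lay above all wild-type libraries for 7 of the 10 genes, but so they did for 56.9% of all genes. After rescaling, 0 were called (5.26% of all genes were), and 2 had an unadjusted p under 0.05 (2220 of all 9690 genes had). By limma voom on the reads 0 were called (11.3% of all genes). The 95% intervals of the 10 rescaled differences lay between −0.33 and 0.43, so a 2-fold change of any of them falls outside its interval.

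In FoB, 0 of the 10 genes were called per cell, against 0.712% of all genes, or after rescaling, against 0.588%. On either scale 0 had an unadjusted p under 0.05 in limma, against 373 of all 9690 genes per cell and 1416 rescaled. limma voom on the reads also called 0 (1.08% of all genes). Differences ran from −0.18 to 0.06 per cell and from −0.13 to 0.11 after rescaling, and the rescaled intervals lay between −0.30 and 0.29. The difference between the knockout effects in MZB and FoB was called for 0 of 10 genes per cell (2.34% of all genes) and for 0 after rescaling (0.31%). An unadjusted p under 0.05 was found for 2 and 1 of the 10, against 2666 and 2209 of all 9690 genes. By limma voom this difference was called for 0 (6.14%). Spib had the largest such difference, with 0.74 ± 0.31 per cell (SE, limma adjusted p = 0.137) and 0.36 ± 0.11 rescaled (SE, limma adjusted p = 0.114). It was also the gene with the largest knockout difference in either cell type, positive in MZB and negative in FoB.

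**Figure D2:**
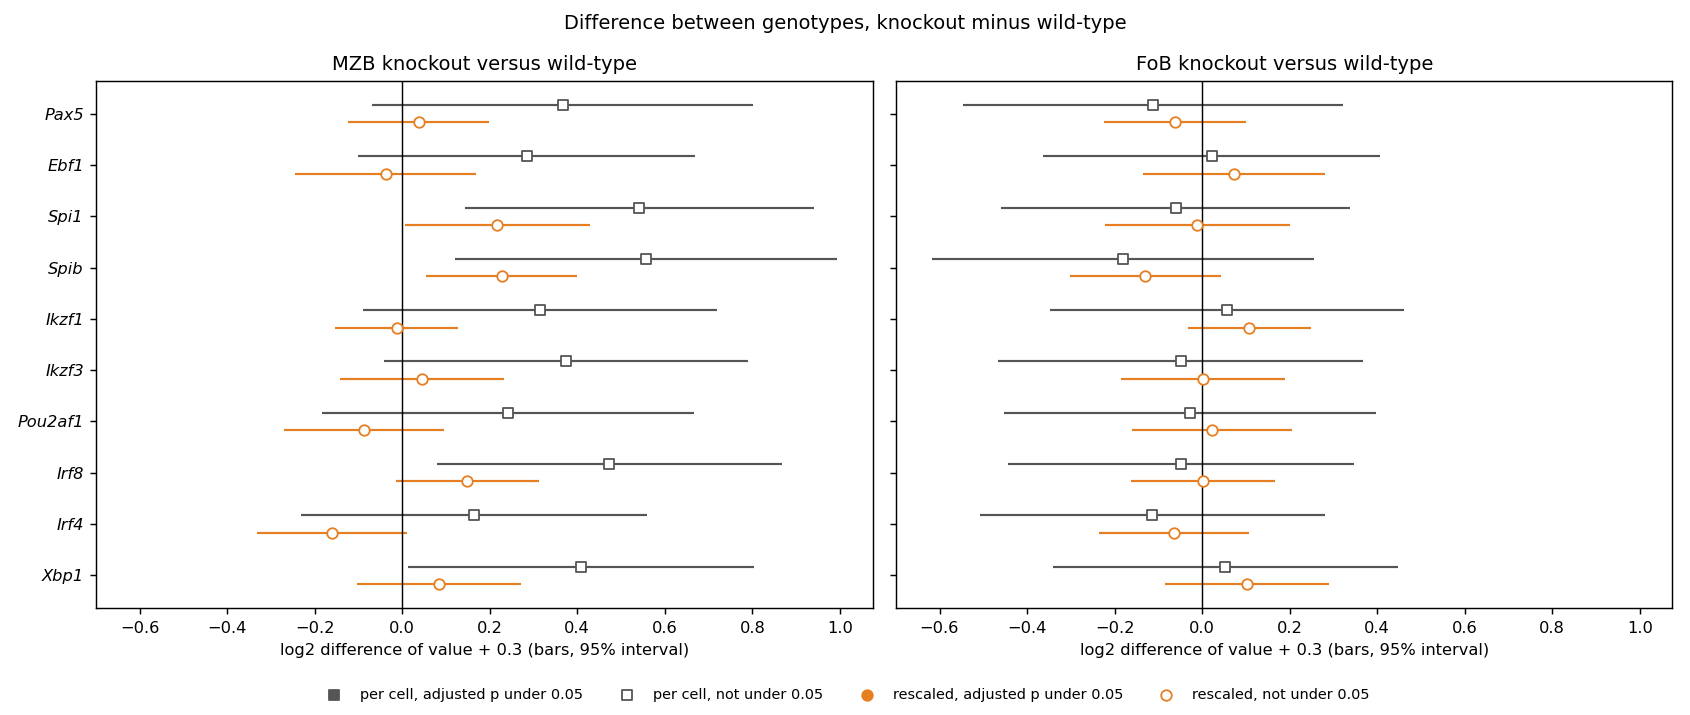
Log2 difference between knockout and wild-type cells for each gene in MZB (left) and FoB (right), with 95% intervals from limma, per cell (grey squares) and rescaled (orange circles). All symbols are open because 0 of 10 genes reached an adjusted p under 0.05 in either cell type on either scale, with the 10 per-cell values in MZB from 0.16 to 0.56.

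MZB were also compared with FoB in each genotype. Among wild-type cells, 6 of the 10 genes were higher per cell in MZB and 0 lower, against 84.2% of all genes higher and 1.67% lower. After rescaling, 2 genes were higher (24.9% of all genes) and 5 lower (25.1%). Irf4 and Ikzf1 were the 2 that stayed higher on both scales, and Irf8, Spi1, Ikzf3, Spib and Pax5 were the 5 that were lower only relative to the other genes. Among knockout cells, all 10 genes were higher in MZB per cell (97.3% of all genes, with 0.444% lower), while after rescaling Irf4 and Ikzf1 were again higher (18.1% of all genes) and Irf8, Ikzf3 and Spi1 lower (17.1%). The 2 comparisons share no library, but both take their spread and their rescaling factors from all 10 libraries, so they are not independent. Of the 2 IRF genes and of the 2 Ikaros family genes, 1 was higher and the other lower after rescaling in both genotypes. Of the 2 ETS genes, both were lower among wild-type cells and Spi1 alone was called among knockout cells.

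**Figure D3:**
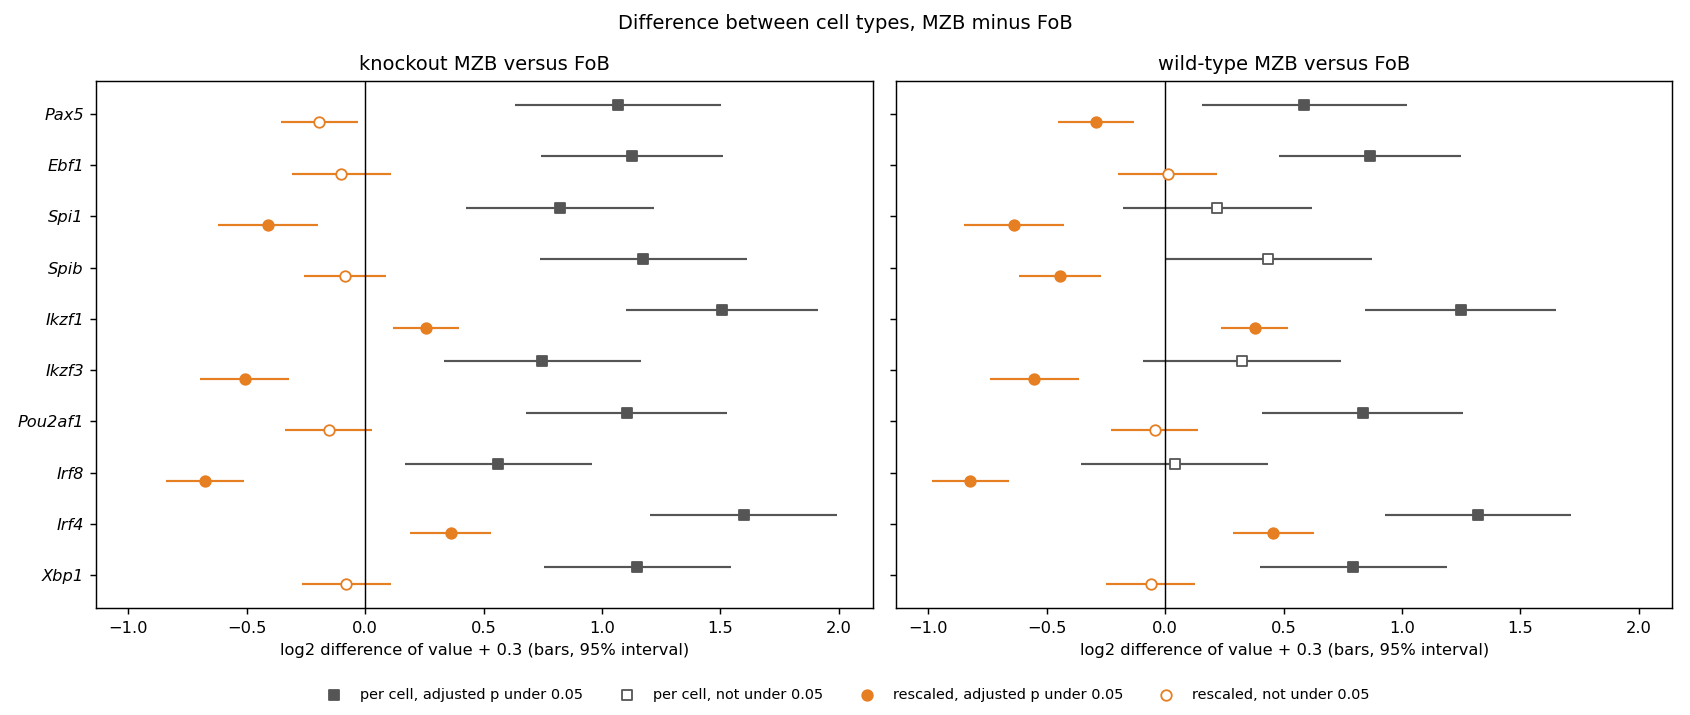
Log2 difference between MZB and FoB for each gene in knockout (left) and wild-type cells (right), with 95% intervals from limma, per cell (grey squares) and rescaled (orange circles). Filled symbols have an adjusted p under 0.05. Irf4 and Ikzf1 lie right of 0 on both scales in both genotypes, while Irf8, Spi1 and Ikzf3 lie right of 0 per cell and left of it after rescaling.

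Pax5 (chromosome 4, 44524748 to 44710694, minus strand, GRCm38.p6), the factor that commits cells to the B lineage, had 105 and 119 mRNA per cell in knockout MZB, against 74.4, 99.4 and 87.9 in wild-type MZB. Knockout FoB held 56.9, 54.8 and 48.2, against 64.4 and 51.4 in wild-type FoB. Every MZB library lay above every FoB library, while knockout and wild-type FoB overlapped. The knockout difference in MZB was 0.37 ± 0.22 per cell (SE, limma adjusted p = 0.187) and 0.04 ± 0.07 rescaled (SE, limma adjusted p = 0.806). Among wild-type cells Pax5 was 0.59 ± 0.22 higher in MZB per cell (SE, limma adjusted p = 0.0111), but lower after rescaling (log2 −0.29 ± 0.07, SE, limma adjusted p = 0.00693). The per-cell call was lost without library 2 of wild-type MZB (0.49, limma adjusted p = 0.0578) or without wild-type FoB library 2 (0.43, limma adjusted p = 0.161). The gene 5730488B01Rik overlaps Pax5 and is also in the table, so reads in the overlap could belong to either.

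Ebf1 (chromosome 11, 44618100 to 45008096, plus strand), which opens B lineage genes for Pax5, held 14.1 and 15.8 mRNA per cell in knockout MZB, against 10.98, 13.9 and 11.9 in wild-type MZB. It held 7.05, 6.39 and 6.59 in knockout FoB and 7.51 and 5.74 in wild-type FoB. The per-cell difference between wild-type MZB and FoB was 0.86 ± 0.19 (SE, limma adjusted p = 5.17e-05), close to the shift of the median gene, and it shrank to 0.01 ± 0.09 after rescaling (SE, limma adjusted p = 0.94). Within a library, Pax5 exceeded Ebf1 by a ratio of 7.49 ± 0.0760 in knockout MZB (SD, n = 2), 7.10 ± 0.298 in wild-type MZB (SD, n = 3), 7.99 ± 0.632 in knockout FoB (SD, n = 3), beside 8.77 ± 0.272 in wild-type FoB (SD, n = 2). This ratio is free of any factor that applies to a whole library.

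Spib (chromosome 7, 44525995 to 44532087, minus strand), the ETS factor of lymphoid cells, held 96.0 and 122 mRNA per cell in knockout MZB, against 62.7, 81.4 and 77.9 in wild-type MZB, and 49.0, 56.0 and 40.0 in knockout FoB, against 61.1 and 48.2 in wild-type FoB. Both knockout MZB libraries stood clear of the wild-type ones, and the FoB groups overlapped. The knockout difference in MZB was 0.56 ± 0.22 per cell (SE, limma adjusted p = 0.0671) and 0.23 ± 0.08 rescaled (SE, limma adjusted p = 0.116), neither of which passed. Rescaled levels were 62.2 and 69.4 in knockout MZB and 55.5, 55.3 and 57.4 in wild-type MZB. Wild-type FoB held 76.7 and 76.1, so knockout MZB lay between the wild-type groups. Knockout MZB overlapped knockout FoB, however, and knockout FoB lay below wild-type FoB. Among wild-type cells Spib was lower in MZB after rescaling (log2 −0.44 ± 0.08, SE, limma adjusted p = 0.000804), with 0.44 ± 0.22 per cell (SE, limma adjusted p = 0.0583). The per-cell difference passed with library 1 of wild-type MZB left out (0.55, limma adjusted p = 0.0160), without library 1 of wild-type FoB (0.605, limma adjusted p = 0.0386) or without library 2 of knockout FoB (0.44, limma adjusted p = 0.0469). Among knockout cells the rescaled difference was −0.09 ± 0.08 (SE, limma adjusted p = 0.422).

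Spi1 (chromosome 2, 91082374 to 91115759, plus strand) encodes PU.1, which is also the main ETS factor of myeloid cells. It held 13.6 and 17.1 mRNA per cell in knockout MZB, against 8.53, 11.3 and 11.6 in wild-type MZB, and 8.86, 9.87 and 7.03 in knockout FoB, against 10.8 and 7.32 in wild-type FoB. Its knockout difference in MZB had the smallest per-cell p of the set, with 0.54 ± 0.20 per cell (SE, limma adjusted p = 0.0540) and 0.22 ± 0.10 rescaled (SE, limma adjusted p = 0.204). It passed per cell with a pseudocount of 1 (0.51, limma adjusted p = 0.0380) and among genes with a mean of at least 1 (0.54, limma adjusted p = 0.0483). Leaving out library 2 of wild-type MZB also let it pass (0.60, limma adjusted p = 0.0273), as Spib and Irf8 then did too. It also passed without FoB knockout library 2 or 3 or without either FoB wild-type library, at an unchanged 0.54 (limma adjusted p from 0.0438 to 0.0463). Among wild-type cells Spi1 was lower in MZB after rescaling (log2 −0.64 ± 0.10, SE, limma adjusted p = 0.000274), with 0.22 ± 0.20 per cell (SE, limma adjusted p = 0.293). Among knockout cells the rescaled difference was −0.41 ± 0.10 (SE, limma adjusted p = 0.00648), and the call was lost without knockout MZB library 1 (log2 −0.34, limma adjusted p = 0.0804).

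Myeloid markers were read beside Spi1. Of 10 macrophage and monocyte markers, 3 were in the table (Itgam, Cd68 and Ly6c2). All genes of the table passed the filter on low values, so markers low in every group may be missing from it. The levels of the absent markers are thus unknown. The 3 markers summed to 7.60 to 10.4 mRNA per cell in knockout MZB and 2.65 to 4.43 in wild-type MZB. They summed to 3.54 to 4.11 in knockout FoB and 1.12 to 1.92 in wild-type FoB. Rescaled, the sums were 4.92 to 5.89 in knockout MZB and 1.80 to 3.27 in wild-type MZB. In FoB the rescaled sums were 4.64 to 6.49 in knockout and 1.77 to 2.41 in wild-type cells. The sums were thus higher in knockout cells of both types, while the rescaled Spi1 difference in FoB was −0.01. Itgam and Ly6c2 were called higher in knockout MZB on both scales and Cd68 on neither, while Spi1 itself was not called. Among all genes 13.3% were higher per cell and 3.36% rescaled. Itgam encodes CD11b, which the sort was set to exclude. The part of myeloid cells in the Spi1 values was not tested. Spi1 relative to Spib stayed at 0.141 ± 0.001002 in knockout MZB (SD, n = 2) and 0.141 ± 0.00686 in wild-type MZB (SD, n = 3), with 0.178 ± 0.00276 in knockout FoB (SD, n = 3), beside 0.164 ± 0.0176 in wild-type FoB (SD, n = 2). The ratio differed between the genotypes of MZB by less than its SD, and it was higher in every FoB library than in any MZB library.

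Ikzf1 (chromosome 11, 11684962 to 11772930, plus strand), which encodes Ikaros, held 35.2 and 42.2 mRNA per cell in knockout MZB, against 26.5, 35.9 and 31.1 in wild-type MZB, and 13.4, 14.6 and 12.3 in knockout FoB, against 15.1 and 10.95 in wild-type FoB. All MZB libraries lay above all FoB libraries, and the genotypes overlapped within each cell type. Among wild-type cells Ikzf1 was higher in MZB by 1.25 ± 0.20 per cell (SE, limma adjusted p = 1.19e-07) and by 0.38 ± 0.06 rescaled (SE, limma adjusted p = 0.000613). Among knockout cells the differences were 1.51 ± 0.20 per cell (SE, limma adjusted p = 3.37e-10) and 0.26 ± 0.06 rescaled (SE, limma adjusted p = 0.00907), the last of which was lost without knockout MZB library 2 (0.22, limma adjusted p = 0.0782).

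Ikzf3 (chromosome 11, 98464610 to 98546031, minus strand), which encodes Aiolos, the relative of Ikaros that rises as B cells mature, went the other way after rescaling. It held 50.5 and 57.7 mRNA per cell in knockout MZB, against 37.4, 47.6 and 40.4 in wild-type MZB, and 34.3, 31.8 and 30.1 in knockout FoB, against 38.1 and 28.9 in wild-type FoB. The wild-type MZB and FoB libraries overlapped per cell. Among wild-type cells the difference was 0.32 ± 0.21 per cell (SE, limma adjusted p = 0.138) and −0.55 ± 0.09 rescaled (SE, limma adjusted p = 0.000328), and among knockout cells 0.75 ± 0.21 per cell (SE, limma adjusted p = 0.000631) and −0.51 ± 0.09 rescaled (SE, limma adjusted p = 0.000819). Ikzf1 relative to Ikzf3 stood at 0.715 ± 0.0234 in knockout MZB (SD, n = 2), 0.745 ± 0.0307 in wild-type MZB (SD, n = 3), 0.419 ± 0.0356 in knockout FoB (SD, n = 3), beside 0.388 ± 0.0117 in wild-type FoB (SD, n = 2). Every MZB library therefore had a higher ratio of Ikaros to Aiolos transcripts than every FoB library, whichever scale is used.

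Pou2af1 (chromosome 9, 51213690 to 51240079, plus strand), the octamer coactivator needed for germinal centres, held 77.1 and 87.4 mRNA per cell in knockout MZB, against 60.2, 80.9 and 68.6 in wild-type MZB, and 36.5, 39.0 and 38.7 in knockout FoB, against 44.1 and 34.2 in wild-type FoB. The genotypes overlapped in both cell types. Among wild-type cells it was 0.83 ± 0.21 higher in MZB per cell (SE, limma adjusted p = 0.000339), and the rescaled difference was −0.05 ± 0.08 (SE, limma adjusted p = 0.678). Pou2af1 thus followed the median gene, as Ebf1 and Xbp1 did.

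Irf8 (chromosome 8, 120736358 to 120756694, plus strand), which holds back plasma cell differentiation and also serves dendritic cells and monocytes, held 14.7 and 19.5 mRNA per cell in knockout MZB, against 10.9, 13.7 and 11.95 in wild-type MZB, and 11.4, 12.8 and 10.1 in knockout FoB, against 13.5 and 10.2 in wild-type FoB. It was the member whose level per cell differed least between wild-type MZB and FoB, at 0.04 ± 0.20 (SE, limma adjusted p = 0.847). Relative to the other genes it was the member lowest in MZB, with rescaled levels of 9.52 and 11.1 in knockout MZB and 9.62, 9.28 and 8.81 in wild-type MZB, against 16.8, 16.7 and 16.2 in knockout FoB and 17.0 and 16.1 in wild-type FoB. The rescaled difference was −0.82 ± 0.07 among wild-type cells (SE, limma adjusted p = 5.85e-06), which puts Irf8 at the 3.76th percentile of all genes. Among knockout cells it was −0.68 ± 0.07 (SE, limma adjusted p = 3.88e-05), while the per-cell difference there was 0.56 ± 0.20 (SE, limma adjusted p = 0.00606) and lost its call without knockout MZB library 2 (0.36, limma adjusted p = 0.181). The knockout difference in MZB was 0.47 ± 0.20 per cell (SE, limma adjusted p = 0.0813) and 0.15 ± 0.07 rescaled (SE, limma adjusted p = 0.254).

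The dendritic cell markers in the table, read beside Irf8, were 2 of 8 (Flt3 and Cst3). They summed to 19.5 to 26.4 mRNA per cell in knockout MZB and 10.6 to 13.9 in wild-type MZB. They summed to 10.3 to 15.5 in knockout FoB and 10.05 to 12.6 in wild-type FoB. Rescaled, the sums were 12.7 to 15.0 in knockout MZB and 9.11 to 9.47 in wild-type MZB. In FoB the rescaled sums were higher, at 16.5 to 20.3 in knockout and 15.85 to 15.86 in wild-type cells. Their part in the Irf8 values was not tested.

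Irf4 (chromosome 13, 30749233 to 30766981, plus strand), the relative that drives plasma cell differentiation at high levels, held 24.8 and 26.5 mRNA per cell in knockout MZB, against 21.1, 25.2 and 22.4 in wild-type MZB, and 8.61, 8.99 and 7.26 in knockout FoB, against 10.6 and 7.56 in wild-type FoB. All MZB libraries lay far above all FoB libraries. Among wild-type cells Irf4 was 2.52-fold higher in MZB as a ratio of mean levels per cell (log2 1.32 ± 0.20, SE, limma adjusted p = 1.36e-08) and 1.38-fold higher rescaled (log2 0.46 ± 0.08, SE, limma adjusted p = 0.000629). Among knockout cells the ratio of means was 3.09 per cell (log2 1.60 ± 0.20, SE, limma adjusted p = 2.04e-11) and 1.29 rescaled (log2 0.36 ± 0.08, SE, limma adjusted p = 0.00409). The rescaled call among knockout cells was lost without knockout MZB library 1 (0.31, limma adjusted p = 0.0537).

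Irf4 was the member with the smallest per-cell difference between knockout and wild-type MZB, at 0.16 ± 0.20 (SE, limma adjusted p = 0.502). After rescaling it had the lowest value of the set, −0.16 ± 0.08 (SE, limma adjusted p = 0.24), with 16.0 and 15.0 in knockout MZB against 18.6, 17.1 and 16.5 in wild-type MZB. Neither difference passed. Within libraries, Irf4 relative to Irf8 stood at 1.68 and 1.36 in knockout MZB, against 1.94, 1.85 and 1.87 in wild-type MZB, and at 0.757, 0.704 and 0.716 in knockout FoB, against 0.782 and 0.739 in wild-type FoB. Irf4 thus outnumbered Irf8 in every MZB library and was outnumbered by it in every FoB library. Both knockout MZB libraries lay below the 3 wild-type MZB libraries in this ratio, which was given no test.

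**Figure D4:**
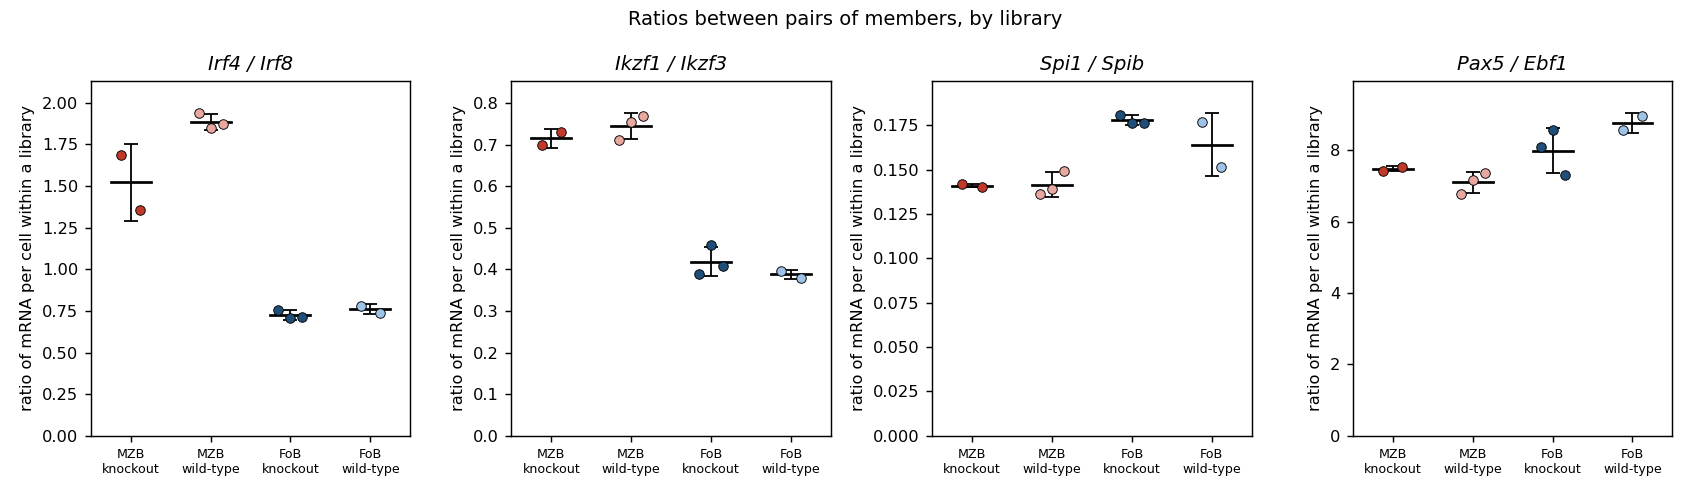
Ratio of 2 transcripts within each library (vertical axes, from 0), for 4 pairs of the 10 genes, in the 4 groups. Points are libraries, lines are means and bars are SDs. Irf4 to Irf8 lies above 1 in the 5 MZB libraries and below 1 in the 5 FoB libraries, and Ikzf1 to Ikzf3 is likewise higher in MZB.

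Xbp1 (chromosome 11, 5520641 to 5525993, plus strand), the factor of the secretory programme, held 13.8 and 18.5 mRNA per cell in knockout MZB, against 9.59, 13.3 and 13.4 in wild-type MZB, and 6.89, 8.18 and 6.17 in knockout FoB, against 7.60 and 6.03 in wild-type FoB. The difference between wild-type MZB and FoB was 0.79 ± 0.20 per cell (SE, limma adjusted p = 0.000245) and −0.06 ± 0.08 rescaled (SE, limma adjusted p = 0.575). The table gives the level of all Xbp1 transcripts and does not tell the spliced, active form apart. The knockout difference in MZB was 0.41 ± 0.20 per cell (SE, limma adjusted p = 0.119) and 0.08 ± 0.08 rescaled (SE, limma adjusted p = 0.587).

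**Figure D5:**
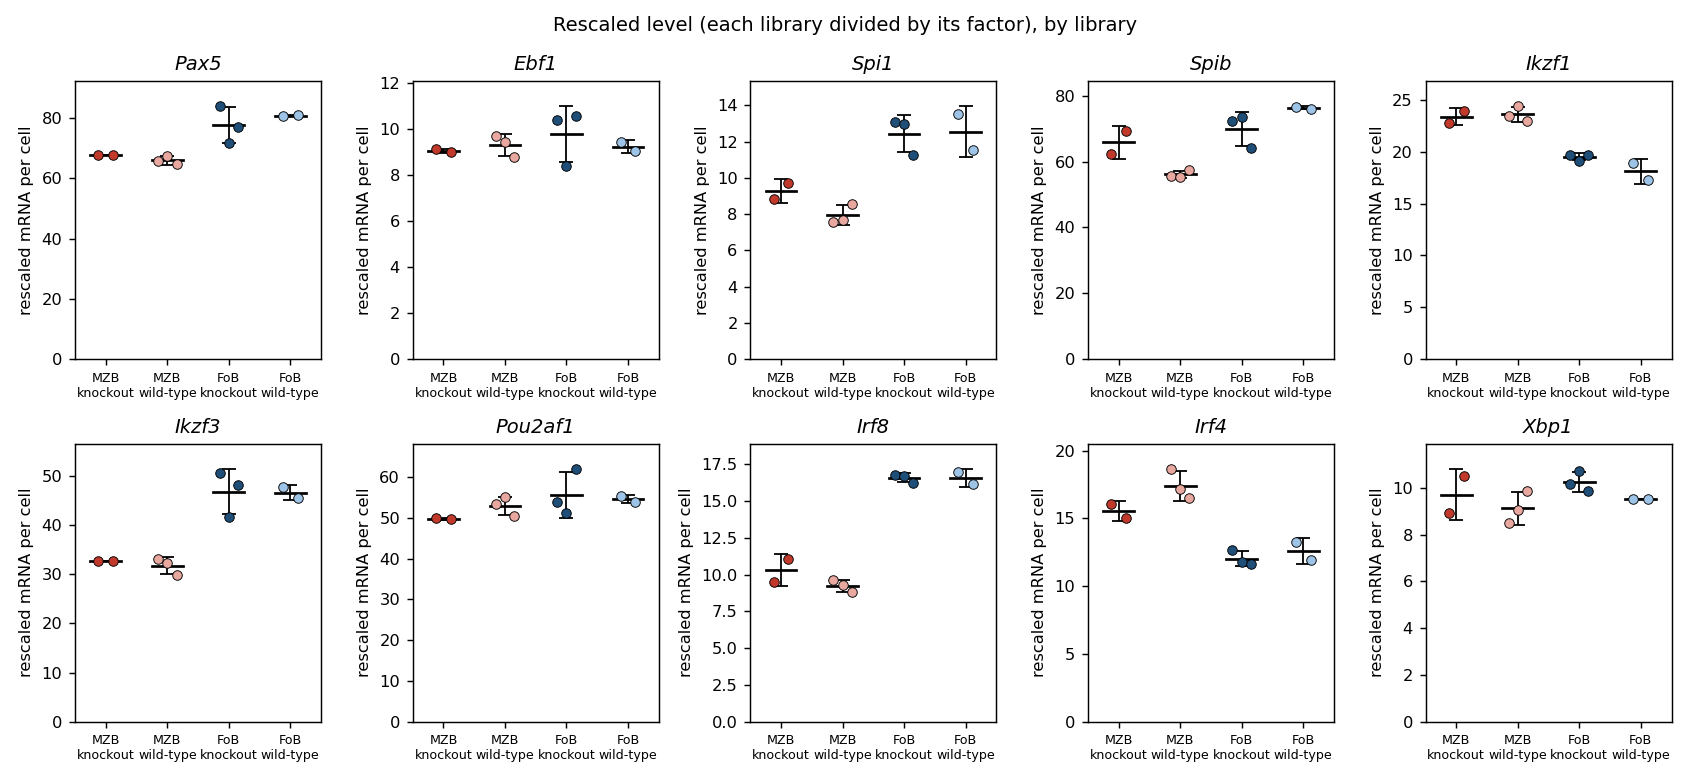
Rescaled level of each gene (vertical axes, from 0) in every library of the 4 groups. Points are libraries, lines are means and bars are SDs. Irf8, Spi1, Ikzf3 and Pax5 are lower in all 5 MZB libraries than in any FoB library, and Irf4 and Ikzf1 are higher. Ebf1, Pou2af1, Xbp1 and Spib overlap, whereas per cell all 10 genes have higher means in MZB.

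Genes that Xbp1 switches on in secretory cells, such as chaperones and translocation subunits, were in the table for 17 of 17. Between wild-type MZB and FoB, 16 of them were higher per cell and 0 lower (84.2% and 1.67% of all genes), with a median of 1.05 beside 0.78 for all genes. After rescaling 8 were higher and 2 lower (24.9% and 25.1% of all genes), with a median of 0.22 beside 0.00. Pdia4, a protein disulphide isomerase, differed most clearly, with 178 ± 16.0 mRNA per cell in knockout MZB (SD, n = 2) and 163 ± 19.6 in wild-type MZB (SD, n = 3), against 17.6 ± 1.93 in knockout FoB (SD, n = 3), beside 19.4 ± 4.83 in wild-type FoB (SD, n = 2). Its log2 difference among wild-type cells was 3.07 per cell (limma adjusted p = 6.67e-23) and 2.19 rescaled (limma adjusted p = 5.33e-09), far beyond that of Xbp1 itself. Between knockout and wild-type MZB, 1 of the 17 rose per cell (13.3% of all genes), Manf, an endoplasmic reticulum stress protein (0.55, limma adjusted p = 0.0420). After rescaling 1 fell (184 of all 9690 genes did), Edem1, which takes part in the disposal of misfolded proteins (log2 −0.24, limma adjusted p = 0.0444).

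Of 7 plasma cell markers, 3 were in the table (Mzb1, Slamf7 and Ell2). They summed to 113 to 124 mRNA per cell in knockout MZB, 71.4 to 100.3 in wild-type MZB, 23.2 to 29.9 in knockout FoB and 20.9 to 26.2 in wild-type FoB. Rescaled sums overlapped between knockout MZB, at 70.3 to 73.1, and wild-type MZB, at 63.2 to 73.7. Mzb1, a chaperone of antibody assembly in MZB and plasma cells, made up most of them, with 105 ± 7.36 mRNA per cell in knockout MZB (SD, n = 2) and 81.8 ± 15.6 in wild-type MZB (SD, n = 3). The part of plasma cells in the levels of Irf4 and Xbp1 was not tested.

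Among the factors that work with or against the set, 19 of 21 were in the table. Of these, 7 rose in knockout MZB per cell and 4 after rescaling (13.3% and 3.36% of all genes were higher). On either scale 0 were lower, and the median of the list was 0.42 per cell beside 0.32 for all genes. The list was chosen with earlier results of these data known, so these counts are descriptive and test nothing. The 4 that rose on both scales were Id3, an inhibitor of E proteins (1.13 per cell, limma adjusted p = 1.19e-05, and 0.80 rescaled), Klf2, a factor of quiescence and trafficking (0.98, limma adjusted p = 0.000231, and 0.65), and 2 repressors that oppose plasma cell fate, Bach2 (0.92, limma adjusted p = 0.000345, and 0.59) and Bcl6 (0.91, limma adjusted p = 0.000361, and 0.59). Bach2 had 4.13 ± 0.611 mRNA per cell in knockout MZB (SD, n = 2) and 2.06 ± 0.481 in wild-type MZB (SD, n = 3). Bcl6 had 5.43 ± 0.441 in knockout MZB (SD, n = 2) and 2.75 ± 0.257 in wild-type MZB (SD, n = 3). In FoB, 0 of the 19 passed on either scale, where only 0.712% of all genes passed per cell and 0.588% rescaled. The knockout effect was larger in MZB than in FoB for 6 of the 19 per cell and 3 after rescaling (2.34% and 0.31% of all genes differed in either direction), among them Id3 (difference of 1.21 per cell, limma adjusted p = 0.00570) and Bcl6 (1.16, limma adjusted p = 0.00703). Among wild-type cells Bach2, Bcl6, Id3 and Klf2 were all lower in MZB than in FoB on both scales, and Klf2 also counts as a follicular marker. The 5 follicular markers summed to 131 to 153 mRNA per cell in knockout MZB and 64.5 to 93.5 in wild-type MZB, against 201 to 242 in knockout FoB and 187 to 244 in wild-type FoB, and their part in these changes was not tested.

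Family relatives of the set (other IRF, Ikaros, ETS, octamer and CREB or ATF factors) were in the table for 20 of 22. In knockout MZB, 3 of the 20 rose per cell, close to the share of 13.3% among all genes. These were Irf7 (log2 1.001, limma adjusted p = 0.000139), Irf1 (0.79, limma adjusted p = 0.00386) and Irf9 (0.62, limma adjusted p = 0.0245), and the list's median was 0.40 beside 0.32 for all genes. Irf1 also rose after rescaling (0.46, limma adjusted p = 0.0140, with 3.36% of all genes higher), whereas Irf7 and Irf9 had 0.67 and 0.29, which did not pass. In knockout FoB 0 passed, beside 0.712% of all genes per cell and 0.588% rescaled. Between wild-type MZB and FoB, 15 relatives were higher and 0 lower per cell (84.2% and 1.67% of all genes), whereas after rescaling 3 were higher and 11 lower (24.9% and 25.1%), with Irf2, a repressor of interferon signalling, among those lower (log2 −1.05, limma adjusted p = 6.23e-07).

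Genes that Pax5 or Ebf1 are known to activate were in the table for 10 of 11. In knockout MZB, 2 rose per cell, Vpreb3, a protein of the early B cell receptor (1.01, limma adjusted p = 0.000361), and Cd72, an inhibitory coreceptor (0.73, limma adjusted p = 0.0165), and Cd72 rose after rescaling too (0.40, limma adjusted p = 0.00677). Among all genes 13.3% rose per cell and 3.36% after rescaling. The median difference of the 10 per cell was 0.45 beside 0.32 for all genes. In FoB 0 of 10 passed, beside 0.712% of all genes per cell and 0.588% rescaled. Genes that Pax5 silences were in the table for 3 of 8. All genes of the table passed the filter on low values, so a gene low in every group may be missing from it. What the 3 show therefore cannot stand for the 8. In knockout MZB 2 of the 3 rose per cell and 1 rescaled (13.3% and 3.36% of all genes). In knockout FoB 2 rose on either scale (0.712% and 0.588% of all genes were called in either direction). Flt3, a receptor of progenitors and dendritic cells that also counts as a dendritic cell marker above, rose in knockout cells of both types and on both scales. Its level was 2.12 ± 0.289 mRNA per cell in knockout MZB (SD, n = 2) and 0.350 ± 0.0903 in wild-type MZB (SD, n = 3), with 0.423 ± 0.0773 in knockout FoB (SD, n = 3), beside 0.0919 ± 0.00381 in wild-type FoB (SD, n = 2). Its log2 differences were 1.90 in MZB (limma adjusted p = 1.03e-13) and 0.88 in FoB (limma adjusted p = 0.00273), which understate the change because the levels are near the pseudocount of 0.3. Emb, a cell surface glycoprotein, rose per cell in MZB (0.69, limma adjusted p = 0.00752) and in FoB (0.71, limma adjusted p = 0.0328), while its rescaled difference passed in FoB (0.87, limma adjusted p = 0.0119) and not in MZB (0.38, limma adjusted p = 0.122). Notch1 had 0.06 in MZB and −0.09 in FoB per cell and did not pass. Pax5 itself passed in neither cell type.

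Genes that PU.1 or Spi-B bind or activate in B cells were in the table for 7 of 7. In knockout MZB, their median was 0.47 per cell beside 0.32 for all genes, and 2 rose per cell, Rasgrp3, an activator of Ras (0.83, limma adjusted p = 0.00274), and Grap2, an adaptor protein (0.62, limma adjusted p = 0.0250), and Rasgrp3 also passed after rescaling (0.50, limma adjusted p = 0.0144), beside 13.3% of all genes higher per cell and 3.36% rescaled. Between wild-type MZB and FoB, 4 of the 7 were higher and 0 lower per cell (84.2% and 1.67% of all genes), while 6 were lower and 1 higher after rescaling (25.1% and 24.9%). Btk, Syk and P2ry10 were thus called in opposite directions on the 2 scales, and Tlr9, the endosomal receptor for DNA, was higher on both (1.26 per cell, limma adjusted p = 1.02e-07, and 0.39 rescaled).

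For each gene other than Pax5 the 2 most similar profiles were taken by Pearson correlation of rescaled log2 values over the 10 libraries, which share their cell types and their scaling factors and fall apart into MZB and FoB. They were Arid1a (0.996) and Crebbp (0.995) for Irf8, Scaf11 (0.989) and Arid5b (0.988) for Ikzf3, and Zc3h12d (0.988) and Slx4ip (0.987) for Irf4. N4bp3 (0.986) and Sh3bgrl3 (0.984) were closest to Spi1, Map2k2 (0.982) and Usp19 (0.981) to Spib, and Scd2 (0.980) and Mcoln3 (0.979) to Ikzf1. The genes that followed the median between cell types had looser matches, with Uba6 (0.941) and Fbxo11 (0.937) for Pou2af1, Mrpl51 (0.905) and Zbtb12 (0.895) for Xbp1, and Dennd1b (0.892) and Myo5a (0.874) for Ebf1.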

How the data were processed

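The authors deposited 1 table of 9690 genes by 10 libraries holding a signal value, mRNA molecules per cell, as the deposited column names state. Libraries were poly(A)-selected and stranded, per the labels' protocols, and STAR and mm10 are named, per the submitters' processing notes. The counter, the annotation, the strand setting and the factor from reads to molecules are not given there. Entrez identifiers were matched to GRCm38.p6 for 9681 genes. Column use was complete (0 columns unassigned).

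Each gene's values are whole multiples of a fixed step per read and library, which gave whole reads for 100.0% of genes within 0.02 reads. The step fell with exon length (Pearson r of log values −0.83 across 9258 genes, which are not independent), so levels are roughly per length. No 2 libraries were identical (0 pairs).

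Tests used limma 3.58.1 (R 4.3.3) on log2(value + 0.3), with 1 coefficient for each of 4 groups, an intensity trend, two-sided, and Benjamini-Hochberg adjustment over all genes at 0.05. Fold changes are on the log2(value + 0.3) scale and understate changes of low genes. Genes needed 0.3 or more in 2 libraries, and all passed. For rescaled values, log-ratios of each library to the average library were trimmed (0.3 by ratio, 0.05 by level) and averaged into a divisor, from 0.624 to 1.76. An error common to a whole library is counted anew in each gene, which can make the per-cell p-values too small. Scripts were tested on simulated data. Tables and plots used Python 3.11.15, pandas 2.3.3 and matplotlib 3.10.9.

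All 10 genes were named. From each related list, up to 4 genes with the smallest p in knockout against wild-type MZB and up to 2 in each other comparison could be named. The 10 genes and the lists were chosen with earlier results of these data known. Their counts beside the shares of all genes are therefore descriptive. Alternatives were other pseudocounts, filters, a replicate block, limma voom on the reads and leaving out each library. The profiles most similar to Pax5 are not reported here.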

Additional observations from a re-analysis of the deposited data

How the results depend on the processing

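Rescaling removes differences between libraries in total mRNA per cell. It turned the sign between wild-type MZB and FoB of Pax5 (−0.29), Spi1 (−0.64), Spib (−0.44), Ikzf3 (−0.55), Pou2af1 (−0.045), Irf8 (−0.82) and Xbp1 (−0.061), and it ended the call of Ebf1. Between knockout MZB and FoB it turned Pax5 (−0.19), Ebf1 (−0.10), Spi1 (−0.41), Spib (−0.086), Ikzf3 (−0.51), Pou2af1 (−0.16), Irf8 (−0.68) and Xbp1 (−0.080). Knockout differences that turned, none of them called, were Ebf1 (−0.038), Ikzf1 (−0.012), Pou2af1 (−0.087) and Irf4 (−0.16) in MZB, Ikzf3 (0.0021), Pou2af1 (0.023) and Irf8 (0.0019) in FoB, and, for the difference between effects, Ebf1 (−0.11), Ikzf1 (−0.12), Pou2af1 (−0.11), Irf4 (−0.097) and Xbp1 (−0.019). All genes called went to 510 with rescaling for knockout MZB against 1356 per cell, to 4850 against 8323 between wild-type cell types, to 3413 against 9469 between knockout cell types (5 against 10 of the set) and to 30 against 227 for the difference between effects.

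With a pseudocount of 1, knockout MZB had 2078 genes called per cell and 1 of the set, Spi1, which was also the 1 called among genes with a mean of at least 1. The difference between effects had 134 genes with a pseudocount of 0.1 and 421 with 1. limma voom called 1094 genes for knockout MZB against 510 rescaled, 105 for knockout FoB against 57, and 595 against 30 for the difference between effects, and it added Pax5 between knockout cell types (−0.19, limma adjusted p = 0.0492).

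Deviations from the group means correlated from −0.19 to 0.21 for same-numbered libraries and from −0.21 to 0.15 for differently numbered ones. In a group of 2 libraries the deviations are mirror images, which fixes part of these values. Whether the replicate numbers pair the libraries could therefore not be told. With the replicate number as a block, 528 genes were called per cell for knockout MZB and 110 for the difference between effects. On rescaled values the block left 267 for knockout MZB, 37 for knockout FoB and 4 for the difference between effects, and it turned Pou2af1 in FoB (−0.00029) and Xbp1 in the difference between effects (0.012).

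Leaving out 1 library at a time gave 269 to 2791 genes and 0 to 3 of the set for knockout MZB per cell, 39 to 123 genes for knockout FoB and 59 to 744 for the difference between effects. Rescaled, it gave 56 to 947, 25 to 69 and 1 to 338 genes for the same comparisons, and 1986 to 3360 genes and 3 to 6 of the set between knockout cell types. Signs in FoB turned per cell for Pax5 (−0.27 to 0.049), Ebf1 (−0.16 to 0.21), Spi1 (−0.33 to 0.21), Ikzf1 (−0.17 to 0.28), Ikzf3 (−0.25 to 0.15), Pou2af1 (−0.21 to 0.15), Irf8 (−0.25 to 0.15), Irf4 (−0.35 to 0.12) and Xbp1 (−0.11 to 0.21). They turned rescaled for Spi1 (−0.12 to 0.10), Ikzf3 (−0.056 to 0.082), Pou2af1 (−0.056 to 0.082), Irf8 (−0.035 to 0.039) and Irf4 (−0.14 to 0.012). Between wild-type cell types Spi1 (−0.051 to 0.49) and Irf8 (−0.16 to 0.24) turned per cell and Ebf1 (−0.021 to 0.049) rescaled. Rescaled Ikzf1 (−0.047 to 0.022) and Xbp1 (−0.027 to 0.20) in knockout MZB, Xbp1 between knockout cell types (−0.19 to 0.031), and Ikzf3 (−0.037 to 0.10) and Xbp1 (−0.13 to 0.093) in the difference between effects turned too. Pax5 passed rescaled between knockout cell types without knockout FoB library 2 (−0.25, limma adjusted p = 0.0154). Where an arm kept 1 library, it was taken to vary like the other groups. The cause of these changes was not tested. With 2 or 3 libraries in a group, differences smaller than the intervals given could not be shown.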
